A study of Mus musculus with 15 samples.

Results

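The catenins are cytoplasmic partners of cadherins, and 6 catenin and related genes were followed across mouse mammary tumors: Ctnnb1, Jup, Ctnnd1, Ctnna1, Ctnnal1 and Ctnnbip1. Ctnnbip1 encodes an inhibitor of beta-catenin rather than a cadherin partner, and the words catenin genes and family include it below. The members were the listed catenin genes for which the array holds a transcript cluster with a single gene symbol, and where a gene had more than 1 such cluster the brightest by its mean over all arrays was used. These were 6 of 22180 genes with a single symbol, and all 6 were among the 14243 genes that passed the filter on dim genes. Tumors came from ErbB2KI mice, a knock-in model of breast cancer driven by the receptor tyrosine kinase Erbb2, in which floxed Ctnnb1 alleles were meant to be deleted in the mammary epithelium. The groups were homozygous floxed Ctnnb1 fl/fl (HOM), heterozygous floxed Ctnnb1 fl/wt (HET) and wild-type Ctnnb1 wt/wt (WT), with 5 tumors and 1 array per tumor in each, and all 3 shared the ErbB2KI background. Total RNA was taken from whole tumors frozen at end burden. The labels used here do not name the recombinase or the promoter that drives it, say whether WT mice carried it, give ages, or tie each tumor to its own mouse. The p-values therefore treat the tumors as independent, which tumors from the same mouse would not be. They rest on the spread between these tumors, which may also be partly technical. Values are the deposited log2 array values, and a difference of 1 is a 2-fold change.

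At an adherens junction the tail of a cadherin such as E-cadherin binds beta-catenin (Ctnnb1) or its close relative plakoglobin (Jup), and p120-catenin (Ctnnd1) binds nearer to the membrane and keeps the cadherin at the cell surface. Alpha-catenin (Ctnna1) joins that complex to actin. Beta-catenin outside the junction is destroyed unless a Wnt signal is received, and it then enters the nucleus and acts with TCF/LEF factors. Plakoglobin also links desmosomal cadherins to keratin filaments, alpha-catulin (Ctnnal1) is an alpha-catenin relative, and Ctnnbip1 (also called ICAT) encodes a small inhibitor that blocks the binding of beta-catenin to TCF factors. In mammary epithelium the cadherin-catenin complex holds neighbouring cells together.

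No catenin gene passed the test in any comparison of genotypes, and at most 38.5% of the variation of a member lay between genotypes. The widest member was Ctnnal1, which spanned 3.23 on the log2 scale over the 15 tumors, followed by Jup at 3.05 and Ctnnbip1 at 1.78. Ctnnb1, Ctnnd1 and Ctnna1 spanned 0.942, 0.966 and 0.896. The SD over the 15 tumors was 0.915 for Jup, above that of 91.2% of tested genes, and 0.785 for Ctnnal1, above that of 87.4%. Ctnnbip1 (0.441) and Ctnnb1 (0.337) lay above 67.7% and 54.4% of tested genes. Ctnna1 and Ctnnd1 had SDs of 0.240 and 0.239, above 32.5% and 32.3%, so the structural partners were the steadiest members. The share of the variation that lay between genotypes was 38.5% for Ctnnbip1, 25.6% for Ctnnb1 and 18.8% for Jup. It was 11.5% for Ctnnd1, 4.18% for Ctnna1 and 3.76% for Ctnnal1.

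**Figure D1:**
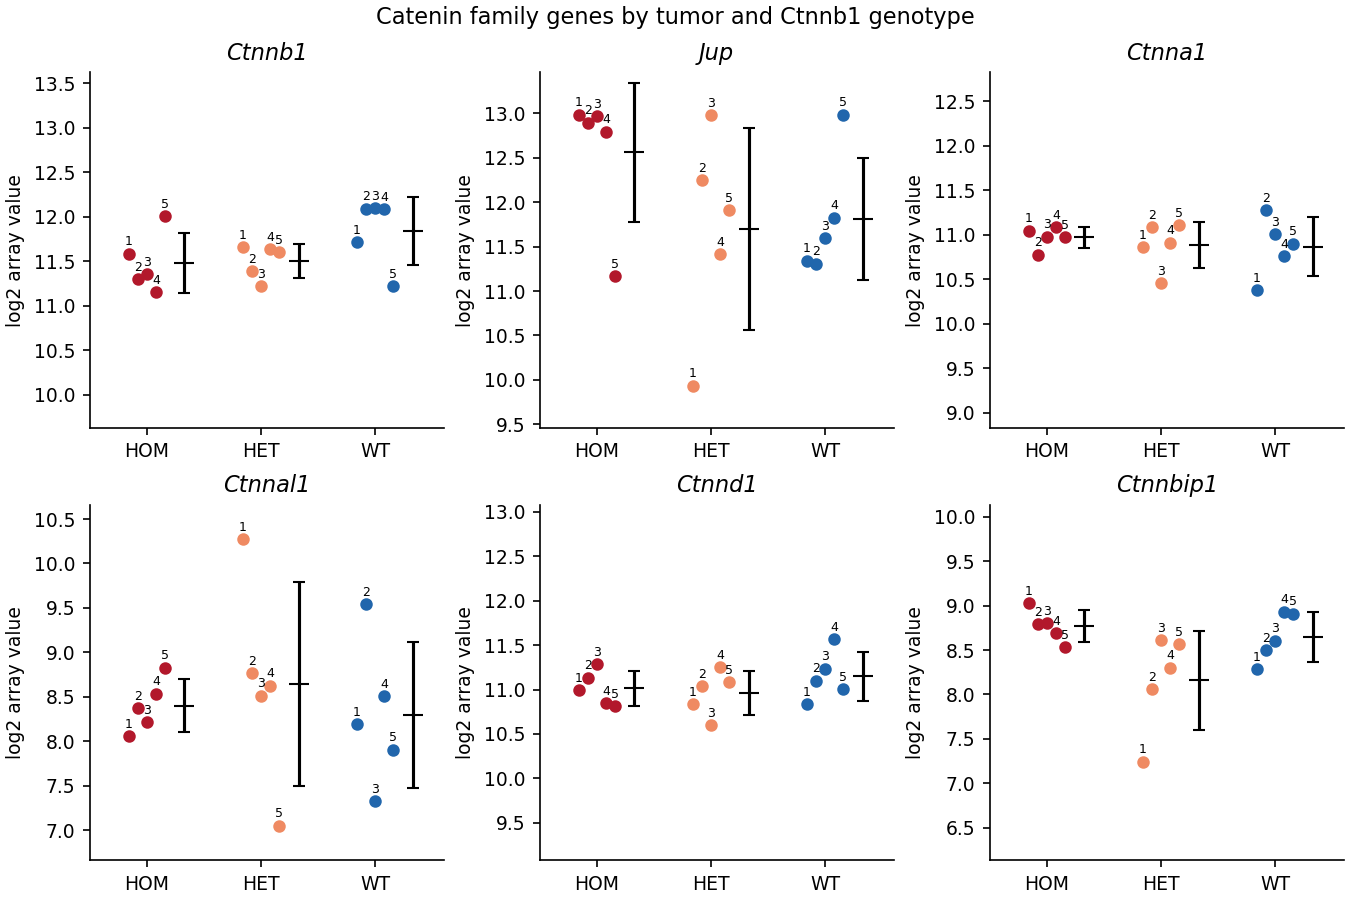
Log2 array values of the 6 catenin genes (y axis, all panels with the same span) in HOM, HET and WT tumors. Points are tumors with their number, and bars to the right of the points are the mean ± SD of 5 tumors. Jup of HOM 5 (11.17) lies far below the other HOM tumors, and HET 1 is lowest for Jup and Ctnnbip1 and highest for Ctnnal1.

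Cell type markers were read beside the members, since a whole tumor mixes cells and fewer cells of a type cannot be told apart from less RNA per cell. The 16 epithelial markers, all tested, had a mean of 10.05 to 10.90 in HOM, 7.63 to 11.01 in HET and 9.86 to 10.86 in WT. HET 1 was the tumor at 7.63, and its mean over 6 measured of 7 listed B and plasma cell markers was 10.36, against 5.18 to 5.96 in the other HET tumors and at most 7.33 in WT. HET 3 had a mean of 11.21 over the 8 skeletal muscle markers, against 5.38 to 6.17 in the other HET tumors. The part of either tissue in the results was not tested. The level of E-cadherin (Cdh1) was 8.38 in HET 1, and no other tumor was below 11.23. As for the targeted gene, WT 5 had a Ctnnb1 level of 11.22, inside the range of HOM 1 to HOM 4, and HOM 5 had 12.01, above WT 1 and just below WT 2 to WT 4. WT 5 was thus the lowest WT tumor and HOM 5 the highest HOM tumor for Ctnnb1, though the labels give alleles and no levels. The differences of the members, of Cdh1 and of the partner lists between genotypes are also given without these tumors. The plain correlations over all tumors do not use the labels.

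Ctnnb1, Jup and Ctnnbip1 form the 2 pairs of members whose levels were related by rank over the tumors, and the stretches just before their transcription starts are shown for orientation. They are the 200 bases before the outermost RefSeq start in mouse build GRCm38.p6, written 5′ to 3′ on the strand of the gene. Capitals mark the GC box (GGGCGG, which reads CCGCCC here because all its matches are on the other strand) and the CCAAT box (CCAAT), each searched on both strands, and no matches overlap.
Ctnnb1, chr9:120933200-120933399, plus strand: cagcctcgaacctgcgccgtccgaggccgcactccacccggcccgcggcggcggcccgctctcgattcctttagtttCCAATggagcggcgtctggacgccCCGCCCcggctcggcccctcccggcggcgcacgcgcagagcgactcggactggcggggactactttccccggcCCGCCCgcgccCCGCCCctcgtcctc
Jup, chr11:100397840-100398039, minus strand: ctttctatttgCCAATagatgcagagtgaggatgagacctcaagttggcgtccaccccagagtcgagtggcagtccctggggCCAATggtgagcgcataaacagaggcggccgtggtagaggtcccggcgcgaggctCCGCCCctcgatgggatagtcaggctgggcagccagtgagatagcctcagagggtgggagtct
Ctnnbip1, chr4:149518041-149518240, plus strand: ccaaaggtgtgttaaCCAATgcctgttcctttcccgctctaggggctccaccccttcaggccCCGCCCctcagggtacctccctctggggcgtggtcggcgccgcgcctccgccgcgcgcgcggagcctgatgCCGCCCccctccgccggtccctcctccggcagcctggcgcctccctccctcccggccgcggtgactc

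The Ctnnb1 stretch holds 3 GC boxes and 1 CCAAT box, that of Jup 1 and 2, and that of Ctnnbip1 2 and 1. Of 32851 promoter stretches of the same length in the RefSeq table, 31% hold a GC box and 29.3% a CCAAT box. The GC content was 76.5% for Ctnnb1, 60.5% for Jup and 74% for Ctnnbip1, against a median of 53%. The TCF/LEF core (CTTTG followed by AA, AT, TA or TT, in 11.6% of stretches) and the E-box read by Snail and Zeb repressors (CAGGTG, in 4561 of the stretches) had no match in any of the 3, which says only that these letters are not in these windows.

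Ctnnb1, transcript cluster 17523257, encodes beta-catenin and is the gene whose alleles were floxed. Its values were 11.58, 11.30, 11.36, 11.15 and 12.01 in HOM 1 to HOM 5, 11.66, 11.39, 11.22, 11.63 and 11.60 in HET 1 to HET 5, and 11.71, 12.09, 12.10, 12.08 and 11.22 in WT 1 to WT 5. All 3 groups overlapped: the 3 highest tumors were WT 2, WT 3 and WT 4, while the 3 lowest were 1 of each genotype, HOM 4, WT 5 and HET 3. The means ran from HOM (11.48 ± 0.33) over HET (11.50 ± 0.19) to WT (11.84 ± 0.39, SD, n = 5 each), and neighbours in this order did not differ beyond their spread. HOM differed from WT by -0.36 (95% interval -0.78 to 0.058; exact permutation p = 0.143, 0.214 adjusted over the 3 comparisons). HET differed from WT by -0.34 (95% interval -0.75 to 0.079; exact permutation p = 0.0952, 0.214 adjusted), and HOM from HET by -0.021 (95% interval -0.44 to 0.40; exact permutation p = 0.905). As ratios to WT, the intervals run from 0.584 to 1.04 for HOM and from 0.593 to 1.06 for HET. Without WT 5 the differences from WT were -0.51 for HOM and -0.49 for HET (exact permutation p = 0.0317 and 0.00794, 0.0476 and 0.0238 adjusted). Without WT 5 and HOM 5 HOM differed from WT by -0.65 (exact permutation p = 0.0286, 0.0429 adjusted), but the choice of which tumors to leave out was made on Ctnnb1, and these p-values are no independent test. The position of its probes on the gene was not available to the comparison, so the cluster may read a transcript that lacks only the floxed exons.

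Jup, transcript cluster 17269464, encodes plakoglobin, which can take the place of beta-catenin on cadherins. Its values were 12.98, 12.90, 12.97, 12.79 and 11.17 in HOM 1 to HOM 5, 9.94, 12.25, 12.98, 11.42 and 11.91 in HET 1 to HET 5, and 11.34, 11.31, 11.60, 11.82 and 12.98 in WT 1 to WT 5. A set of 6 tumors lay close together at the top, HOM 1 to HOM 4, HET 3 and WT 5, and HET 2 came next. The means ran from HET (11.70 ± 1.14) over WT (11.81 ± 0.69) to HOM (12.56 ± 0.78), and no neighbours differed beyond their spread. HOM differed from WT by 0.75 (95% interval -0.37 to 1.87) and from HET by 0.86 (95% interval -0.25 to 1.98). The HOM minus WT difference was larger than that of all but 2.04% of tested genes in size. It was 1.39 without WT 5, the highest of all tumors for Jup, and HOM 5, the lowest of HOM. Both were chosen on Ctnnb1, which ran against Jup over the tumors, so 1.39 is no independent estimate. Limma's adjusted p for HOM against WT lay between 0.999 and 1 in every setting. The HOM minus HET difference was 1.21 without HOM 5 and 0.42 without HET 1, with an adjusted p between 0.364 and 0.988 over all settings. HET differed from WT by -0.11 (95% interval -1.23 to 1.005, limma adjusted p = 0.944).

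Ctnnd1, transcript cluster 17387432, encodes p120-catenin. Its values lay between 10.82 and 11.29 in HOM (median 10.99), 10.60 and 11.25 in HET (median 11.04) and 10.84 and 11.56 in WT (median 11.10). The highest was WT 4 and the lowest HET 3, and the 3 groups overlapped. The means ran from HET (10.96 ± 0.25) over HOM (11.02 ± 0.20) to WT (11.15 ± 0.27) without a neighbour differing beyond its spread. HOM differed from WT by -0.13 (95% interval -0.47 to 0.20) and HET from WT by -0.19 (95% interval -0.52 to 0.15). HOM and HET differed by 0.053 (95% interval -0.28 to 0.39).

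Ctnna1, transcript cluster 17349520, encodes alpha-catenin and had the smallest range of genotype means among the members. Its values lay between 10.78 and 11.09 in HOM (median 10.98), 10.46 and 11.11 in HET (median 10.91) and 10.38 and 11.28 in WT (median 10.90). The HOM values lay inside the WT range, and WT 1 and HET 3 were the 2 lowest tumors. The means ran from WT (10.86 ± 0.33) over HET (10.88 ± 0.26) to HOM (10.97 ± 0.12), again with no neighbours apart beyond their spread. HOM differed from WT by 0.11 (95% interval -0.24 to 0.46), HET from WT by 0.020 (95% interval -0.33 to 0.37) and HOM from HET by 0.089 (95% interval -0.26 to 0.44).

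Ctnnal1, transcript cluster 17425466, encodes alpha-catulin. Its values were 8.06, 8.37, 8.21, 8.53 and 8.83 in HOM 1 to HOM 5, 10.28, 8.77, 8.51, 8.63 and 7.05 in HET 1 to HET 5, and 8.19, 9.55, 7.33, 8.51 and 7.91 in WT 1 to WT 5. The HET tumors held both ends, with HET 1 highest and HET 5 lowest, and HOM was the tightest group. The means ran from WT (8.30 ± 0.82) over HOM (8.40 ± 0.30) to HET (8.65 ± 1.15), and the groups overlapped throughout. HET differed from WT by 0.35 (95% interval -0.69 to 1.40), HOM from WT by 0.11 (95% interval -0.94 to 1.15) and HOM from HET by -0.25 (95% interval -1.29 to 0.80). Single tumors set the sign: HET minus WT was -0.056 without HET 1, and HOM minus HET was 0.16.

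Ctnnbip1, transcript cluster 17421821, encodes the inhibitor ICAT. Its values were 9.03, 8.79, 8.81, 8.69 and 8.53 in HOM 1 to HOM 5, 7.25, 8.06, 8.61, 8.30 and 8.57 in HET 1 to HET 5, and 8.28, 8.50, 8.61, 8.93 and 8.91 in WT 1 to WT 5. The 3 lowest were HET 1, HET 2 and WT 1, and HOM 5 was the only HOM tumor that reached down into the HET values. The means ran from HET (8.16 ± 0.56) over WT (8.65 ± 0.28) to HOM (8.77 ± 0.18). HOM differed from HET by 0.61 (95% interval 0.12 to 1.10), a 1.53-fold higher mean, with an unadjusted p of 0.0174 that did not hold over all tested genes (limma adjusted p = 0.587). HET differed from WT by -0.49 (95% interval -0.975 to -0.0013, limma adjusted p = 0.372 with an unadjusted p of 0.0495), and HOM from WT by 0.12 (95% interval -0.36 to 0.61). Without HET 1 the HOM minus HET difference was 0.38 and the HET minus WT difference -0.26. A second cluster of the gene, 17433166, lay between 4.74 and 5.27 on all arrays, below the median of all clusters on each, and was not used. Averaging both clusters gave differences of 0.0019 for HOM against WT, -0.25 for HET against WT and 0.25 for HOM against HET.

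**Figure D2:**
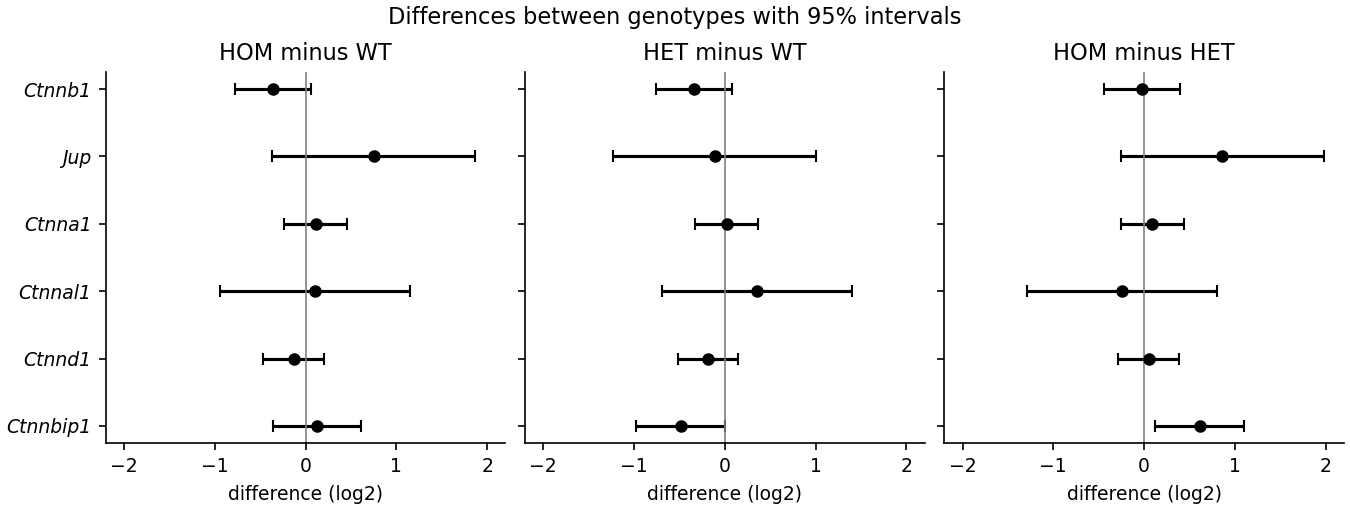
Differences between genotypes in log2 array value (x axis, HOM minus WT, HET minus WT and HOM minus HET) for the 6 catenin genes, as points with 95% intervals from limma. The intervals of Ctnnbip1 exclude 0 for HOM minus HET (0.12 to 1.10) and, narrowly, for HET minus WT, before adjustment over all genes.

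Over the family, 0 of 6 members passed the limma test at an adjusted p of 0.05 in each comparison. The background was 0% of tested genes for HOM against WT, 0.0140% for HET against WT and 0% for HOM against HET, so these counts do not set the family apart. At an unadjusted p under 0.05 there were 0 members for HOM against WT, 1 for HET against WT and 1 for HOM against HET, against 1.70%, 13.4% and 7.93% of tested genes. Groups overlapped for 6 of 6 members in each comparison. Genotypes did not overlap for 0.281% of tested genes for HOM against WT, 1.58% for HET against WT and 1.03% for HOM against HET. For HOM against WT, 4 members had higher and 2 lower means, and the median difference of the 6 was 0.11, beside -0.012 for all tested genes. For HET against WT, 2 were higher and 4 lower (median -0.15, beside -0.030), and for HOM against HET, 4 were higher and 2 lower (median 0.071, beside 0.014). HOM and HET were both set against the same WT tumors, so the first 2 of these medians are not independent. Of all tested genes, 47.2% had higher means in HOM than in WT, 45.5% in HET than in WT and 52.45% in HOM than in HET. The splits of the members were not tested against these shares. With WT 5 and HOM 5 left out, limma again called 0 of 6 members in each comparison. The HOM minus WT differences were then 0.12 for Ctnna1, -0.098 for Ctnnal1, -0.12 for Ctnnd1 and 0.25 for Ctnnbip1. The HET minus WT differences were 0.18 for Jup, 0.028 for Ctnna1, 0.25 for Ctnnal1, -0.22 for Ctnnd1 and -0.42 for Ctnnbip1, the last with an unadjusted p of 0.115. The HOM minus HET differences were -0.15 for Ctnnb1, 0.089 for Ctnna1, -0.35 for Ctnnal1, 0.10 for Ctnnd1 and 0.67 for Ctnnbip1.

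Among the 15 pairs of members, 2 passed adjustment by rank, Ctnnb1 with Jup, which share a place on cadherins, and Jup with Ctnnbip1, and only Jup with Ctnnbip1 passed by Pearson's r. The 5 tumors with the lowest Ctnnb1, HOM 4, WT 5, HET 3, HOM 2 and HOM 3, were all among the 6 with the highest Jup, and the next in Ctnnb1, HET 2, was the seventh in Jup. Over 15 tumors Pearson's r was -0.66 (permutation p = 0.00732, 0.0549 adjusted over the 15 pairs) and Spearman's rho -0.77 (permutation p = 0.00125, 0.0173 adjusted). It was -0.66 without WT 2 and WT 3, the tumors farthest from the Ctnnb1 median (permutation p = 0.0143, 0.215 adjusted), and -0.73 for deviations from the genotype means (permutation p = 0.00236, 0.0177 adjusted). For this and the other pairs, the deviations use the labels, those of WT 5 and HOM 5 included, and were permuted over all 15 tumors. No correlation was computed without both WT 5 and HOM 5, so their part in the values for deviations was not tested. The 6 tumors with the highest Jup carry all 3 genotype labels. They lie close together on Jup (12.79 to 12.98) but spread from 11.15 to 11.58 on Ctnnb1, whose range over all tumors was 0.942.

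**Figure D3:**
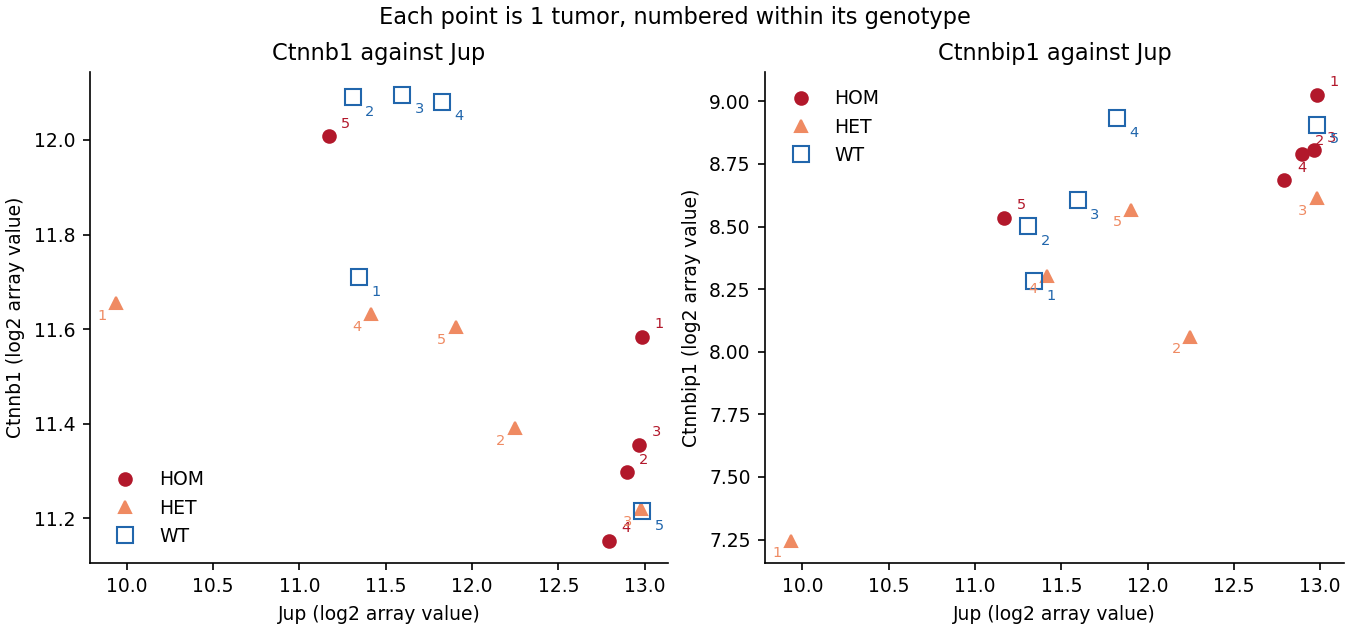
Ctnnb1 (left) and Ctnnbip1 (right) against Jup, all as log2 array values, with 1 point per tumor, numbered within HOM (filled circles), HET (triangles) and WT (open squares). On the left, 6 tumors of all 3 genotypes sit together on Jup at 12.79 to 12.98, with Ctnnb1 spread from 11.15 to 11.58. On the right, HET 1 lies far from the rest at Jup 9.94 and Ctnnbip1 7.25.

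Jup and Ctnnbip1 went together over the 15 tumors, with r = 0.76 (permutation p = 0.00130, 0.0195 adjusted over the 15 pairs) and rho = 0.74 (permutation p = 0.00231, 0.0173 adjusted). Without HET 1 and WT 5, the tumors farthest from the Jup median, r was 0.51 (permutation p = 0.0767, 0.575 adjusted), so the relation rests in part on these tumors. For deviations from the genotype means it was 0.80 (permutation p = 0.000440, 0.00660 adjusted). Ctnnal1 ran against both, with r = -0.64 for Ctnnbip1 (rho = -0.54, permutation p = 0.0170 and 0.0413) and -0.52 for Jup (rho = -0.54, permutation p = 0.0482 and 0.0408). Neither passed adjustment over the 15 pairs (0.0848 and 0.181 for r, 0.155 for both rho values). Without the 2 tumors farthest from the median of the first gene, r was -0.36 for Ctnnal1 with Ctnnbip1 (without HET 1 and HET 5, permutation p = 0.229) and -0.14 for Jup with Ctnnal1 (without HET 1 and WT 5, permutation p = 0.658). The other 11 pairs had r between -0.23 and 0.39, with unadjusted permutation p from 0.151 to 0.957. Beta-catenin and alpha-catenin, which bind each other in the junction, had r = 0.18, and p120-catenin with beta-catenin gave the highest of these, 0.39.

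**Figure D4:**
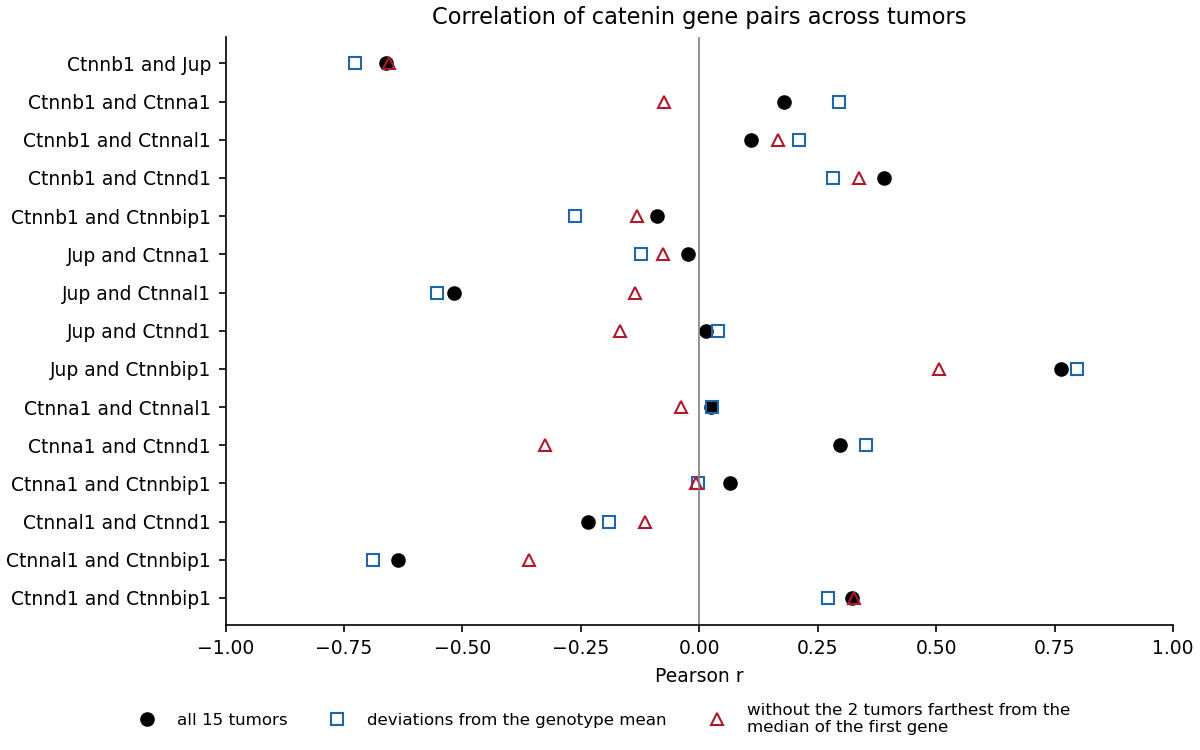
Pearson r (x axis) for each of the 15 pairs of catenin genes over 15 tumors (filled circles), for deviations from the genotype mean (open squares) and without the 2 tumors farthest from the median of the first gene (triangles). Ctnnb1 with Jup stays between -0.73 and -0.66 in the 3 settings, while Ctnna1 with Ctnnd1 changes from 0.30 to -0.33 when HET 3 and WT 1 are left out.

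The epithelial marker mean moved with the 3 widest members, and 48 relations between 6 members and 8 marker lists were computed. For Jup r was 0.80 (rho = 0.75, permutation p = 0.000230 and 0.00221, 0.0110 and 0.0265 adjusted over the 48), and 0.65 without HET 1 and HET 4 (permutation p = 0.0143). For Ctnnbip1 r was 0.87 (rho = 0.79, permutation p = 0.00131 and 0.000920, 0.0210 and 0.0251 adjusted), and 0.52 without these tumors (permutation p = 0.0700). Ctnnal1 ran the other way, with r = -0.79 (rho = -0.76, permutation p = 0.000670 and 0.00157, 0.0161 and 0.0251 adjusted), and -0.68 without them (permutation p = 0.0118). Ctnnal1 also went with endothelial markers by rank (rho = 0.76, 0.0251 adjusted; r = 0.59, 0.219 adjusted; permutation tests). No other relation of the 48 passed adjustment, and none did for Ctnnb1, Ctnna1 or Ctnnd1. With the epithelial mean as a covariate, HOM differed from HET by 0.19 for Jup, 0.31 for Ctnnbip1 and 0.37 for Ctnnal1, instead of 0.86, 0.61 and -0.25. HET then differed from WT by 0.46 for Jup, -0.24 for Ctnnbip1 and -0.17 for Ctnnal1, instead of -0.11, -0.49 and 0.35, and no member passed in this fit either. Ctnnb1 differed from WT by -0.34 in HOM and -0.43 in HET under that covariate, instead of -0.36 and -0.34. Its HOM minus HET difference was 0.089 instead of -0.021.

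**Figure D5:**
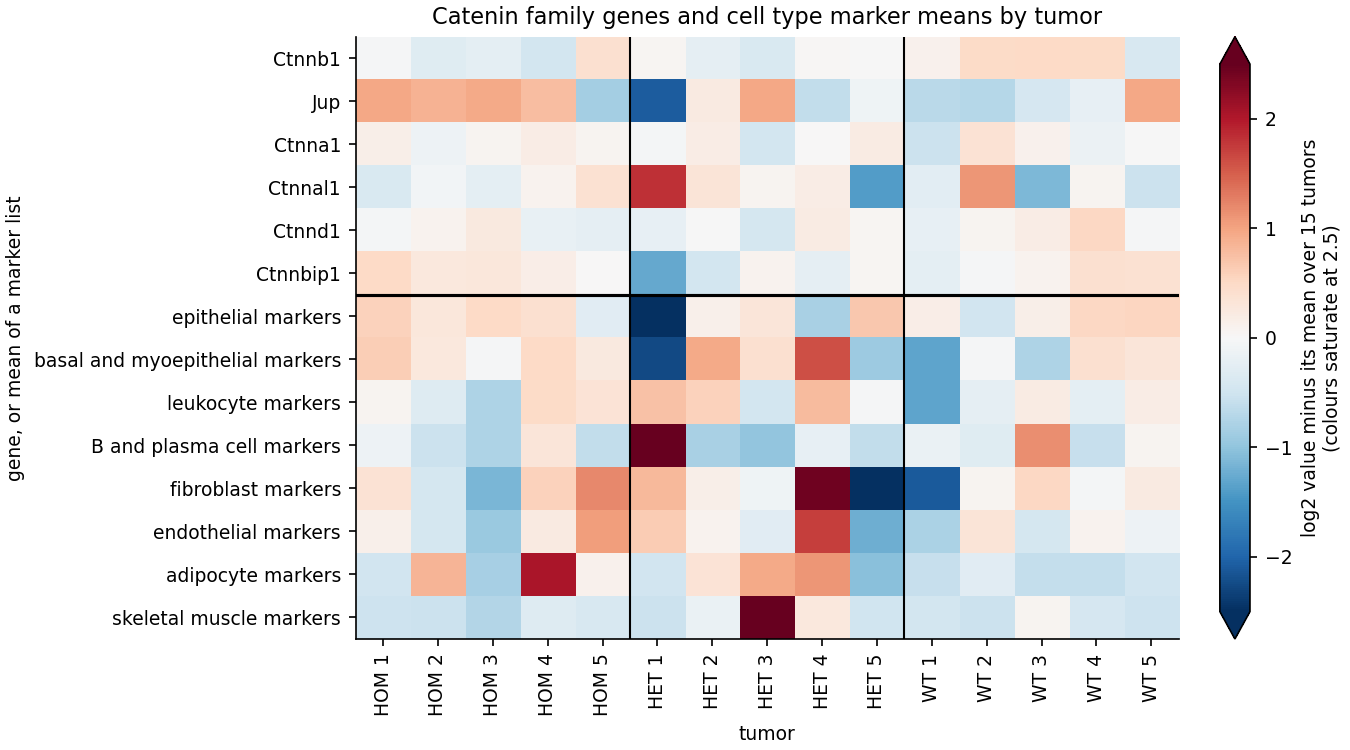
Values by tumor (x axis, HOM, HET, WT) of the 6 catenin genes (above the line) and of the means of 8 cell type marker lists (below it), as log2 value minus the mean over 15 tumors. HET 1 is low for Jup, Ctnnbip1 and epithelial markers (7.63) and high for Ctnnal1 and B and plasma cell markers (10.36), and HET 3 is high for skeletal muscle markers (11.21).

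The genes most like each member over the 15 tumors were read off by Pearson's r among all tested genes, as a description without a test. For Ctnnb1 they were the homeobox gene Hoxa4 (0.87), Nktr (0.85), Myo10, a myosin of filopodia (0.85), the T-box factor Tbx2 (0.80) and the cationic amino acid transporter Slc7a1 (0.79). Nktr lies on the chromosome of Ctnnb1 with 7 protein-coding genes between them in the RefSeq table. Hoxa4 was dim, from 5.40 to 7.17, which at its lower end is below all the array medians. For Jup they were Ammecr1 (0.89), the epithelial ETS factor Ehf (0.88), the laminin receptor Bcam (0.87), Isoc1 (0.86) and the proton pump subunit Atp6v1b1 (0.86). Without HET 1 these 5 ranged from 0.77 to 0.84, and Ehf is itself one of the 16 epithelial markers. For Ctnnbip1 they were the milk fat globule gene Mfge8 (0.96), the growth factor Tgfb3 (0.95) and Igfbp5 (0.93), and without HET 1 these were 0.95, 0.87 and 0.79. For Ctnnal1 they were the forkhead factor Foxf2 (0.88), Zbtb25 (0.88) and Rgcc (0.87), and without HET 1 these were 0.79, 0.80 and 0.83. Foxf2 was also dim, from 5.06 to 6.62, which at its lower end is below all the array medians. For Ctnna1 they were genes of the actin cytoskeleton, Tpm4 (0.82) and Flna (0.79), and the zinc finger gene Zfp516 (0.80). Spearman's rho was 0.72 for Tpm4 but only 0.46 for Flna and 0.51 for Zfp516. For Ctnnd1 they were Pced1a (0.83), Fignl2 (0.81) and Gpr107 (0.80).

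Partners of the catenins were counted from 5 lists, and limma called 0 genes in each list and each comparison. At an unadjusted p under 0.05 the 5 lists held 0 genes for HOM against WT, beside 1.70% of all tested genes. For HET against WT, beside 13.4% of all tested genes, the count was 6 of 23 in the adherens junction list, 2 of 13 in the desmosome list, 1 of 19 in the nuclear list and 0 in the others. For HOM against HET, beside 7.93%, it was 2 of 13 in the desmosome list, 1 of 19 in the nuclear list and 0 in the others. Limma again called 0 genes in each list and comparison without WT 5 and HOM 5. The HET against WT counts at an unadjusted p under 0.05 were then 2 of 23 in the adherens junction list and 2 of 13 in the desmosome list. They were 2 of 7 among the catenin and armadillo relatives, 1 of 15 in the destruction complex list and 1 of 19 in the nuclear list. The share over all tested genes in that setting is not given here. Of 7 tested catenin and armadillo relatives (9 listed), 2 had higher and 5 lower means in HOM than in WT, 1 and 6 in HET than in WT, and 7 and 0 in HOM than in HET. The median differences were -0.097, -0.21 and 0.25, beside -0.012, -0.030 and 0.014 for all tested genes. Of all tested genes, 47.2% had higher means in HOM than in WT, 45.5% in HET than in WT and 52.45% in HOM than in HET. These shares and medians are also the background of the other lists with all tumors, and no split was tested against them. The background without WT 5 and HOM 5 is not given. Pkp2, a desmosomal plakophilin, was 7.95 ± 1.11 in HET and 8.85 ± 0.31 in WT, and the neural delta-catenin Ctnnd2 was 6.09 ± 0.39 in HET and 6.88 ± 0.96 in WT (limma adjusted p = 0.378 and 0.380). Single tumors carried much of both differences, which were -0.90 for Pkp2, or -0.45 without HET 1, and -0.79 for Ctnnd2, or -0.44 without WT 2. Without WT 5 and HOM 5 the median differences of this list were -0.042 for HOM against WT, -0.23 for HET against WT and 0.32 for HOM against HET. Ctnna2 and Ctnna3, the other alpha-catenins, did not pass the filter on dim genes.

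Of 23 tested cadherins and adherens junction partners (28 names listed, older and newer symbols included), 14 had higher and 9 lower means in HET than in WT (median difference 0.082), 8 and 15 in HOM than in WT (median -0.035), and 7 and 16 in HOM than in HET (median -0.15). Ssx2ip, a junction-associated protein, was 7.92 ± 0.47 in HET and 8.56 ± 0.30 in WT, and the actin cross-linker Actn4 12.39 ± 0.27 and 12.76 ± 0.25 (limma adjusted p = 0.302 and 0.317). E-cadherin (Cdh1), the anchor of the complex, was 11.67 ± 0.29 in HOM, 11.07 ± 1.53 in HET and 11.74 ± 0.14 in WT, and HOM differed from WT by -0.074 (95% interval -1.205 to 1.06). That difference was 0.059 without WT 5 and HOM 5 and 0.035 without HOM 5. For Cdh1, HET minus WT was -0.67, or -0.65 without WT 5 and HOM 5 and 0.0019 without HET 1. Its HOM minus HET difference was 0.60, or 0.70 and -0.076 in these settings. In the adherens junction list 13 genes had higher and 10 lower means in HOM than in WT without WT 5 and HOM 5 (median 0.048), so the split of this comparison turned. The medians were then 0.043 for HET against WT and -0.11 for HOM against HET.

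All 13 desmosome partners of plakoglobin were tested. Dsc3, a desmosomal cadherin of stratified epithelium, was 6.84, 10.30, 8.27, 9.39 and 4.92 in HET 1 to HET 5 and between 5.02 and 5.51 in WT. The values in WT and in HET 5 lie below all the array medians, and the gene passed the filter through HET 1 to HET 4, HOM 2 and HOM 3, where it is high. The fitted HET minus WT difference of 2.74 is therefore set against values near the floor of the array, and it did not pass (limma adjusted p = 0.226). Dsg2, the desmosomal cadherin of simple epithelium, was 7.30, 8.59, 9.22, 8.55 and 10.09 in HET 1 to HET 5 and between 9.71 and 10.37 in WT. Its order over the HET tumors was not that of Jup, since HET 3, the highest for Jup, had less Dsg2 than HET 5, and its difference of -1.17 did not pass either (limma adjusted p = 0.242). In HOM, Dsc3 was between 4.84 and 7.50 and Dsg2 between 9.30 and 9.92. The list had 10 higher and 3 lower means in HOM than in WT, the same split in HET against WT, and 7 higher and 6 lower in HOM against HET (median differences 0.21, 0.27 and 0.043). These medians were 0.36, 0.31 and 0.21 without WT 5 and HOM 5.

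Of 15 tested genes of the destruction complex, which marks beta-catenin for degradation, 6 had higher and 9 lower means in HOM than in WT, 4 and 11 in HET than in WT, and 10 and 5 in HOM than in HET (median differences -0.049, -0.12 and 0.065). Apc, its scaffold, was 8.82 ± 0.13 in HET and 9.07 ± 0.20 in WT, and Amer1, which binds Apc, 7.71 ± 0.36 and 8.12 ± 0.32 (limma adjusted p = 0.387 and 0.377). Of 19 tested nuclear partners, 7 were higher and 12 lower in HOM than in WT, 4 and 15 in HET than in WT, and 11 and 8 in HOM than in HET (median differences -0.094, -0.11 and 0.072). Without WT 5 and HOM 5 the medians were -0.029, -0.12 and 0.096 for the destruction complex and -0.051, -0.081 and 0.019 for the nuclear partners. The co-repressor Tle2 was 6.47 ± 0.33 in HET and 6.99 ± 0.43 in WT, and 7.01 ± 0.25 in HOM (limma adjusted p = 0.316 for HET against WT and 0.587 for HOM against HET). The chromatin remodeller Smarca4 was 10.48 ± 0.16 in HOM and 10.70 ± 0.20 in WT, with a limma adjusted p of 1.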

How the data were processed

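RNA of 15 mammary tumors was hybridised to Affymetrix whole-transcript arrays, from 100 ng per tumor per the labels' protocols. The authors deposited log2 intensities for 41345 transcript clusters, ranging from 1.06 to 13.91, with array medians of 5.54 to 5.73. Affymetrix Expression Console and Transcriptome Analysis Console appear in the submitters' processing notes. How background was corrected and arrays were normalized is not stated in the labels or headers used here. The number of arrays limits the precision, and no detection call was used.

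Of the clusters, matched to genes by the platform annotation, 23521 had 1 symbol, 1814 several and 16010 none. A gene was tested when it lay above the array median on at least 5 arrays. Genotypes were compared with limma 3.58.1 in R 4.3.3 over all 14243 tested genes (two-sided, 3 genotypes in 1 fit, 12 residual degrees of freedom, Benjamini-Hochberg adjustment, threshold 0.05). Ctnnb1 was compared by a two-sided exact permutation test over 252 assignments with all tumors, with a smallest possible p of 0.00794. Tests that leave out tumors have fewer assignments. Without WT 5 and HOM 5, neither HOM nor HET overlaps WT for Ctnnb1. The exact permutation p-values of 0.0286 for HOM and 0.00794 for HET are then the smallest those tests could give. Correlations used 100000 permutations. Named genes were the 6 members, Cdh1, for each member the 3 or 5 genes with the highest r (unnamed gene models left out), and from each list the 2 genes with the smallest p per comparison, of which the text gives some; Dsc3 and Dsg2 are shown by tumor. No batch or scan date was given. The fit was tested on simulated data. Replicate numbers follow accession order. The members, lists and alternatives were chosen with earlier results of these data known.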

Additional observations from a re-analysis of the deposited data

Results flagged for a closer look

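Among 18 sets of 5 tumors (6 members in 3 genotypes), 1 held a tumor far from the others: Jup in HOM 5 was 11.17, while HOM 1 to HOM 4 lay between 12.79 and 12.98. The gap to the nearest was 0.895 of the whole range of the group, past Dixon's 95% limit for 5 samples. Chance flags about 1 in 20 such sets. In the same tumor Ctnnb1 was 12.01, the highest of the HOM tumors, and the epithelial marker mean was 10.05, the lowest of them. Their part in the low Jup value was not tested.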

How the results depend on the processing

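No alternative brought a catenin gene past limma's threshold, and the smallest adjusted p over all of them was 0.198 (Ctnnbip1, HET against WT). Over all alternatives 435 differences kept their direction and 33 turned, and the cause was not tested. Without WT 5 and HOM 5, HOM minus WT was -0.098 for Ctnnal1, and HET minus WT was 0.18 for Jup. Ctnnb1 then differed from WT by -0.65 in HOM and -0.49 in HET and passed the exact permutation test. With all tumors it did not pass (0.214 adjusted for both). WT 5 and HOM 5 were chosen on their Ctnnb1 levels, so a larger difference was built in and the pass is no independent test. With the epithelial covariate, HET minus WT was 0.46 for Jup and -0.17 for Ctnnal1, and HOM minus HET 0.089 for Ctnnb1 and 0.37 for Ctnnal1. Without HET 1 and HET 3, HET minus WT was 0.045 for Jup and -0.15 for Ctnnal1, and HOM minus HET -0.062 for Ctnna1, 0.25 for Ctnnal1 and -0.11 for Ctnnd1. For Ctnna1, HET minus WT was -0.042 with array weights and -0.0055 with median centring.

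Leaving out 1 tumor at a time, HOM minus WT ranged from -0.51 to -0.28 for Ctnnb1, -0.012 to 0.21 for Ctnna1, -0.14 to 0.42 for Ctnnal1, -0.21 to -0.029 for Ctnnd1 and 0.032 to 0.19 for Ctnnbip1. HET minus WT ranged from -0.49 to -0.27 for Ctnnb1, -0.43 to 0.33 for Jup, -0.10 to 0.13 for Ctnna1, -0.056 to 0.75 for Ctnnal1, -0.26 to -0.082 for Ctnnd1 and -0.60 to -0.26 for Ctnnbip1. HOM minus HET ranged from -0.15 to 0.061 for Ctnnb1, -0.018 to 0.14 for Ctnna1, -0.64 to 0.16 for Ctnnal1, -0.038 to 0.13 for Ctnnd1, 0.42 to 1.21 for Jup and 0.38 to 0.73 for Ctnnbip1. Over all tested genes, 2 were called for HET against WT, but 48 without HET 3 and 18 without HET 5. Without WT 5 and HOM 5, HOM differed from WT in 4 genes and from HET in 6, where all 15 tumors gave 0 in both.

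The correlation of Ctnnb1 with Jup passed adjustment by Spearman (-0.77), for deviations from the genotype mean (-0.73) and without HET 1 (-0.82). It did not pass with Pearson's r over all tumors (adjusted permutation p = 0.0549), with renewed quantile normalization (0.0743) or without the 2 tumors farthest from the median (0.215). Jup with Ctnnbip1 no longer passed without HET 1 and WT 5 (0.51) or without HET 1 (0.56). Ctnnal1 with Ctnnbip1 passed for deviations (-0.69), but its r over all tumors except HET 1 was -0.26 (permutation p = 0.369). Among weak pairs, without the 2 tumors farthest from the median r was -0.075 for Ctnnb1 with Ctnna1, -0.17 for Jup with Ctnnd1 (-0.18 without HET 1), -0.038 for Ctnna1 with Ctnnal1, -0.33 for Ctnna1 with Ctnnd1 and -0.0064 for Ctnna1 with Ctnnbip1. The last pair was also -0.050 by Spearman, -0.0018 for deviations and -0.053 with all clusters averaged.

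No paired analysis was possible because the replicate numbers only follow the order of the samples and tie no tumor of a genotype to one of another. Signal over background was not available, so a limit of detection cannot be given. With 5 tumors per genotype, the 95% intervals of Jup and Ctnnal1 span about 2 log2 units and those of the other members less than 1.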
